A study of Rattus norvegicus with 6 samples.

Results

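The genes described here encode the mitochondrial respiratory chain and the ATP synthase, together with the relatives that share their names. They were chosen by symbol alone: each probe set that the platform annotation maps to a single gene whose symbol starts with Nduf, Sdha, Sdhb, Sdhc, Sdhd, Uqcr, Cox4, Cox5, Cox6, Cox7, Cox8 or Atp5, with the probe sets of a gene averaged. This gave 90 genes, measured by 101 probe sets, of the 14217 genes named on the array. Of the 90 genes, 80 had 1 probe set, 9 had 2 and 1 had 3. A further 7 probe sets that carry such a symbol beside another gene's symbol were not used as members. By function, 76 of the 90 are structural subunits: 34 of complex I, 4 of complex II, 7 of complex III, 16 of complex IV (with Ndufa4, first assigned to complex I and now placed in complex IV) and 15 of complex V. The other 14 share a prefix only: 10 are assembly factors, and Atp5if1, Cox7a2l, Ndufa4l2 and the pseudogene Cox6c-ps1 are neither subunits nor counted among those factors.

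The study compared ovaries of lean and overfed rats in early pregnancy. Female rats were fed liquid diets through a tube (total enteral nutrition) over 28 days. Lean rats were given 155 kcal and overfed rats 220 kcal for each unit of metabolic body weight. All were then mated with lean males, and ovaries were frozen 4.5 days post coitum. Total RNA of 3 lean and 3 overfed pools was measured on 6 Affymetrix arrays, 1 pool on each. The labels used here give neither the strain and age of the rats nor the number of animals in a pool. The p-values below therefore rest on differences between pools, not between animals. Whole ovaries were used, and fewer cells of a type cannot be told apart from less RNA per cell.

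The respiratory chain is the series of protein complexes in the inner mitochondrial membrane that passes electrons from NADH and succinate to oxygen. Complexes I, III and IV pump protons while they do so, complex II feeds electrons from the citrate cycle, and complex V, the ATP synthase, uses the returning protons to make ATP. In the ovary these complexes supply the energy for follicle growth and for the oocyte, and steroid-producing luteal cells are rich in mitochondria, where the first step of steroid synthesis takes place.

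The values used are logarithms, read here as base 2, and each probe set was centred by the authors on its own median over the 6 arrays. A value of 0 therefore marks the middle of the pools for that gene, not an absent message, and levels cannot be compared between genes. For the same reason the levels of ovary markers could not be used to check the tissue label. Overfed was compared with lean in limma, with p-values adjusted (Benjamini-Hochberg) over all 24433 rows of the table, that is, the named genes and each probe set without a single gene name. In limma the variance of each row is drawn toward that of all rows. For members with little spread the SE was therefore larger than their own 6 values would give.

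None of the 90 genes passed the test between overfed and lean ovaries. The adjusted p was at least 0.758 for each member, and 0 members were called at an adjusted p under 0.05 (background 0% of all rows). At an unadjusted p under 0.05 there were 0 members higher (background 3.39% of rows) and 0 lower (background 3.63%). The differences themselves were small: 76 of the 90 lay within 0.1 of 0 and 88 within 0.2, and 0 passed 1.5-fold. The differences ran from -0.26 for Sdhaf2, an assembly factor of complex II, to 0.20 for Ndufaf4, an assembly factor of complex I. The median size of a difference, direction aside, was 0.040 over the members and 0.087 over all rows, and the median range over the 6 pools was 0.23 over the members and 0.36 over all rows.

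The 95% confidence intervals of the fit give the size of change that the arrays could still hold. In all 90 members the interval held 0, with a median half-width of 0.21. It lay inside a 1.5-fold change in either direction for 87 of the 90 genes and inside 1.25-fold for 68. The exceptions at 1.5-fold were Cox5a (-0.69 to 0.30), Cox6a2 (-0.70 to 0.24) and Cox7a1 (-0.61 to 0.31), all of complex IV. All intervals lay inside a 2-fold change. These intervals are per gene, and the folds would be larger if the deposited logarithms were natural ones. Their widths rest in part on the variance of all rows, and the lowest SE of a member was 0.069 (Cox5b, with SDs of 0.015 in the lean and 0.028 in the overfed pools).

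**Figure D1:**
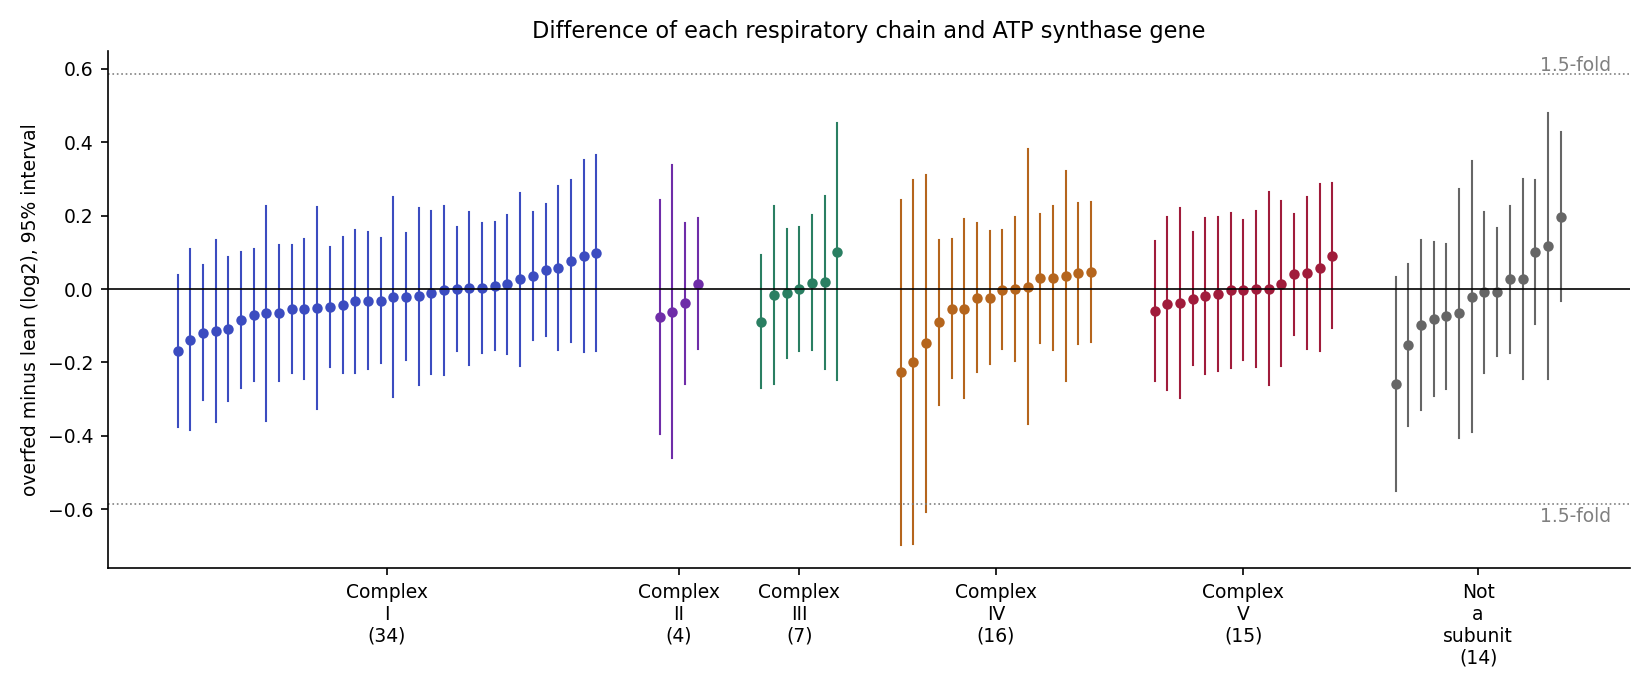
Difference of each of the 90 genes between overfed and lean pools (log2, vertical axis) with its 95% confidence interval from limma, ordered within each complex, with the 14 genes that are no subunit at the right. All 90 intervals cross 0, and only those of Cox5a, Cox6a2 and Cox7a1 (complex IV, at its left end) reach past the dotted 1.5-fold lines.

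More members lay below 0 than above. The overfed mean was above the lean mean in 33 of the 90 genes and below it in 57, where 54.2% of all rows were above. The median difference was -0.015 over the members and 0.013 over all rows. This direction turned when lean pool 2 was left out: 55 of the 90 genes were then above 0. Without overfed pool 1, 45 were above 0 and 45 below, and without lean pool 3, 20 were above. Leaving out each of the other pools gave 32 to 40 above. The count was 25 after quantile normalization (52.1% of all rows above) and 27 with the arrays centred on their medians (51.6%). The median difference over members was 0.011 without lean pool 2 and between -0.052 and -0.0002 without each of the others.

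The lean and overfed pools did not overlap in 1 member higher in overfed, Ndufaf5 (background 7.46% of rows), and in 2 members lower, Ndufb1 and Ndufa8 (background 5.61%). These counts were below the background shares in each direction. With the arrays quantile normalized or centred on their medians the counts became 0 higher (6.75% and 6.74% of rows) and 4 lower (6.21% and 6.25%), where Ndufb10 and Uqcrc1 joined the lower genes. Sdhaf2 joined Ndufb1 and Ndufa8 with representative probe sets and Atp5if1 with shared probe sets left out. Each gave 3 lower (3.33%, against 5.61% and 5.62% of rows).

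With 1 pool left out, 2 pools stand against 3, and more rows do not overlap. Lower members then numbered 16 without lean pool 3 (17.8%, against 9.31% of rows) and 10 without overfed pool 2 (11.1% against 10%). For the other 4 pools they numbered 4 to 7 (4.44% to 7.78%, against 9.31% to 10.6% of rows). Higher members numbered 2 to 5 (2.22% to 5.56%, against 12% to 14.6% of rows), with the 5 found without lean pool 2.

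The promoters of the members were read from RefSeq's GRCr8 windows, which matched 82 of the 90 genes by gene identifier. The 250 bases before the start were searched on both strands for the core letters of sites known from promoters of respiratory genes. The NRF-1 core GCGCATGC was found in 9 of the 82 windows (11% against 2.2% of all 33469 windows), and the ETS core CCGGAAGT, bound by GABP, in 8 (9.76% against 3.1%). The YY1 core AAGATGGC was found in 2 (2.44% against 1.63%) and the ERR site TCAAGGTCA in 1 (1.22% against 0.388%). In all, 63 of the 82 windows held none of the 4. The median GC content was 55.2% in the members' windows and 51.2% in all windows, and the NRF-1 and ETS cores are rich in G and C. A match is a match of letters only, and no binding was measured here.

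The windows shown are those of the genes described below that hold the NRF-1 core, a site of the factor NRF-1 known to act on many nuclear genes of the respiratory chain. They run 5' to 3' on the gene's own strand up to its start. Capitals mark the NRF-1 core and, at the left of the Atp5me window, a YY1 core. Where the core stands on both strands at the same place it reads as a run of 10 capitals, as in Ndufaf4, Ndufaf5, Atp5me and Atp5po. Ndufaf4 lies at chr5:43401545-43401794 (+ strand), Ndufaf5 at chr3:147961362-147961611 (+ strand), Sdhb at chr5:158547684-158547933 (+), Uqcrc1 at chr8:118467973-118468222 (+), Atp5me at chr14:1464610-1464859 (+) and Atp5po at chr11:44657484-44657733 (- strand).
Ndufaf4: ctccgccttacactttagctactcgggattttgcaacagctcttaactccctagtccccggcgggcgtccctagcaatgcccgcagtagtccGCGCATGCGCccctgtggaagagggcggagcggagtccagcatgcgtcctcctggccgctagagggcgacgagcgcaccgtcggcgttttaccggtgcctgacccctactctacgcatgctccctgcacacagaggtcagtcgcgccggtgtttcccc
Ndufaf5: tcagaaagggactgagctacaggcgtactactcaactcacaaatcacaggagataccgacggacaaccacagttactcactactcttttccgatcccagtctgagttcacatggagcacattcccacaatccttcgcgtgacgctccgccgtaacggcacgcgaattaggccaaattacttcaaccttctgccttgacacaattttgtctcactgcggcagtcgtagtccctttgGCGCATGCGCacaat
Sdhb: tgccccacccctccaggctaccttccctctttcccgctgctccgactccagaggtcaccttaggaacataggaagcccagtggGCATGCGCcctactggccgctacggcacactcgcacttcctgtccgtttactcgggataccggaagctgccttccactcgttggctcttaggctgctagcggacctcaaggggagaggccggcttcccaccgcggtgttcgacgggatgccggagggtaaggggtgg
Uqcrc1: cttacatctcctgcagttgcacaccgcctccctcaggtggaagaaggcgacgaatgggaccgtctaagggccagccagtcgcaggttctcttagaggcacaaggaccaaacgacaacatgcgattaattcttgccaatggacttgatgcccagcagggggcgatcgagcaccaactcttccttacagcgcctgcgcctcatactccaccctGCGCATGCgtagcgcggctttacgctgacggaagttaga
Atp5me: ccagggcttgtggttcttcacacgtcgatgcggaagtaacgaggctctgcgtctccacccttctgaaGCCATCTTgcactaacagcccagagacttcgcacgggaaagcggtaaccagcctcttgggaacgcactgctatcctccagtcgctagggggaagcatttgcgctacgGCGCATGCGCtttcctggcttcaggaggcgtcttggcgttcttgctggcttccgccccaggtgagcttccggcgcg
Atp5po: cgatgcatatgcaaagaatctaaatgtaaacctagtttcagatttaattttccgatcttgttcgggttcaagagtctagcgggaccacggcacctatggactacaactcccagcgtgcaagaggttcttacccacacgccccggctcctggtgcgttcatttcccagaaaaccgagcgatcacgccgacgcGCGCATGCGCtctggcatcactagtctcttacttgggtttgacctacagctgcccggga
The core ended 5 bases before the annotated start in Ndufaf5, 31 in Uqcrc1, 49 in Atp5po, 66 in Atp5me, 148 in Ndufaf4 and 159 in Sdhb. The 6 genes were chosen in part by their differences, so their mix of directions was in part set by the choice. Ndufaf4, Ndufaf5, Atp5me and Atp5po had differences above 0 (0.20, 0.10, 0.091 and 0.058), and Sdhb and Uqcrc1 had differences below 0 (-0.062 and -0.089). The core was also found in Atp5mg, Ndufa11 and Ndufa6, which are not described further, with differences of -0.039, -0.055 and 0.0073. None of these genes passed the test.

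Complex I, the NADH dehydrogenase, was represented by 34 subunits. Of these, 22 had a difference below 0 and 12 above, with a median of -0.026. The core subunits, which carry the flavin and the iron-sulfur clusters, all lay on 1 side: 6 of 6 were below 0, with a median of -0.066. Among the 28 supernumerary subunits, which surround the core and do not take part in electron transfer, 16 were below 0 and the median was -0.015. The core count was 5 of 6 without lean pool 2 and 4 of 6 without overfed pool 1.

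Ndufs7 carries the last iron-sulfur cluster before ubiquinone and had the largest difference of the core subunits. Lean pools 1 to 3 were at 0.0085, 0.12 and -0.0085, and overfed pools 1 to 3 were at -0.27, 0.068 and -0.095. Lean pool 2 was highest and overfed pool 1 lowest, and overfed pool 2 lay within the lean range. The difference was -0.14 (SE 0.10, limma adjusted p 0.842). Ndufs8, an iron-sulfur subunit beside it, differed by -0.11 (SE 0.083). Ndufs1, Ndufv1, Ndufs3 and Ndufv2, of which Ndufv1 binds NADH, lay between -0.067 and -0.033. Overfed pool 1 was below 0 in 6 of these 6 genes and was the lowest pool in Ndufs1, Ndufs3, Ndufs7 and Ndufv1, and lean pool 2 was above 0 in 6 of 6.

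Ndufb1, a small supernumerary subunit of the membrane arm, had the largest difference among the complex I subunits. The lean pools were at 0.10, 0.17 and 0.010 and the overfed pools at -0.010, -0.18 and -0.025. The groups did not overlap, but lean pool 3 and overfed pool 1 lay just on either side of 0. The difference was -0.17 (SE 0.087), with a limma adjusted p of 0.784. With arrays weighted by their quality in the fit the difference was -0.21, at an unadjusted p of 0.041 in limma and an adjusted p of 0.638.

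Ndufa8, a supernumerary subunit held by disulfide bonds, was the other subunit whose groups did not overlap. The lean values were 0.011, 0.047 and 0.0008 and the overfed values -0.059, -0.029 and -0.0008. All 6 lay within 0.11 of each other, and the difference was -0.049 (SE 0.069, limma adjusted p 0.929).

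At the other end of complex I stood Ndufs4 and Ndufa9. Ndufs4, whose loss in mice is a known model of complex I disease, was at -0.013, -0.015 and 0.013 in the lean pools and at -0.13, 0.27 and 0.14 in the overfed pools. The lean pools were close together, and the overfed pools lay on both sides of them. The difference was 0.098 (SE 0.11). Without overfed pool 1, the low overfed pool, it was 0.21 and the groups did not overlap (limma adjusted p 0.714). Ndufa9, a subunit near the ubiquinone site, was at 0.0010, 0.078 and -0.26 in the lean pools and at 0.0021, 0.14 and -0.045 in the overfed pools. The difference of Ndufa9 was 0.090 (SE 0.11), and without lean pool 3, its lowest pool, it was -0.0089. Its 2 probe sets did not agree in that pool (-0.0044 and -0.51), and their differences were 0.016 and 0.16.

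Single pools stood out across complex I. Lean pool 2 was above 0 in 31 of the 34 genes and was the highest of the 6 pools in 19. Overfed pool 1 was above 0 in 7 of the 34 and was the lowest pool in 14. Over all rows, lean pool 2 was the highest pool in 15.7% and overfed pool 1 the lowest in 20.1%.

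Complex II, succinate dehydrogenase, is also the enzyme of the citrate cycle that oxidizes succinate, and all its 4 subunits were measured. Sdha, the flavoprotein, was at 0.040, 0.061 and -0.18 in the lean pools and at -0.36, -0.040 and 0.090 in the overfed pools. Sdhb, the iron-sulfur subunit, was at 0.030, 0.15 and -0.28 in the lean pools and at -0.40, 0.14 and -0.030 in the overfed pools. In both genes overfed pool 1 was lowest and lean pool 3 next, and the other pools of the 2 diets overlapped. The differences were -0.075 (SE 0.13) for Sdha and -0.062 (SE 0.17) for Sdhb.

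The membrane anchors of complex II varied less. Sdhc was at 0.047, 0.15 and -0.098 in the lean pools and at -0.050, 0.080 and -0.047 in the overfed pools, a difference of -0.039 (SE 0.093). Sdhd was at 0.042, 0.0007 and -0.093 in the lean pools and at 0.040, -0.031 and -0.014 in the overfed pools, a difference of 0.015 (SE 0.075). Lean pool 3 was the lowest pool for each anchor, though a probe set of Sdhd was lowest in overfed pool 2 (-0.051, against -0.014 in lean pool 3). The limma adjusted p of the 4 subunits lay between 0.949 and 0.983. Without overfed pool 1 the differences of Sdha, Sdhb and Sdhd changed sign, to 0.052, 0.088 and -0.0059. Without lean pool 2 those of Sdhb and Sdhc did, to 0.030 and 0.020, and without lean pool 3 that of Sdhd was -0.023.

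**Figure D2:**
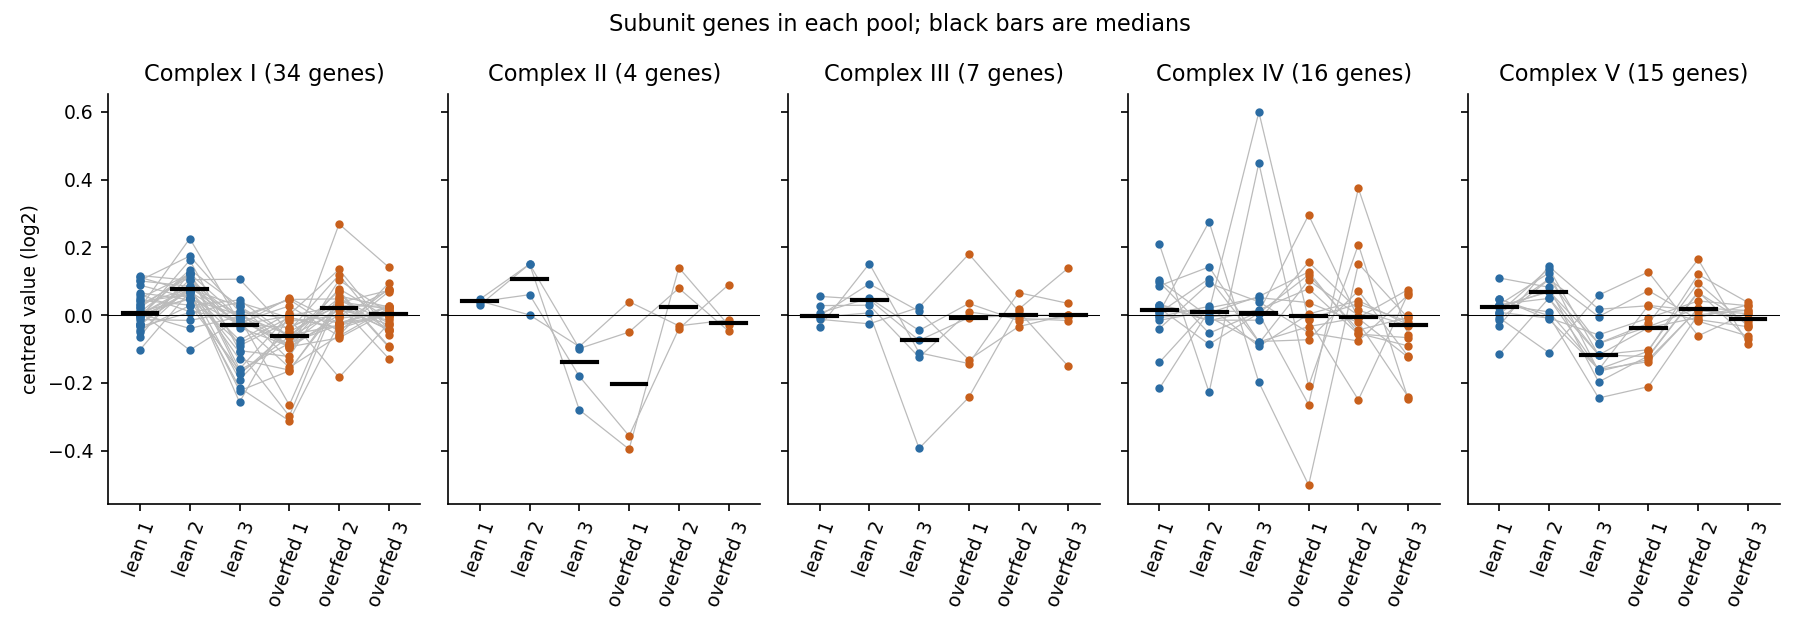
Centred value (log2) of each structural subunit gene in the 6 pools, 1 panel per complex, with a grey line per gene and a black bar at the median of the genes. The complex I median is highest in lean pool 2 (0.078) and lowest in overfed pool 1 (-0.061), complex II and V are low in lean pool 3 and overfed pool 1, and complex IV shows no such common course.

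Complex III passes electrons from ubiquinol to cytochrome c, and its 7 measured subunits had a median difference of -0.00005. Uqcrc1 and Uqcrc2 are its core proteins on the matrix side. Uqcrc1 was at -0.0017, 0.093 and 0.012 in the lean pools and at -0.13, -0.034 and 0.0017 in the overfed pools. Only overfed pool 3 reached into the lean range, and the difference was -0.089 (SE 0.077, limma adjusted p 0.873). Uqcrc2 was at -0.0056, 0.0068 and -0.39 in the lean pools and at -0.24, 0.017 and 0.14 in the overfed pools. Its difference was 0.10 (SE 0.15), and it was -0.029 without lean pool 3. Both probe sets of Uqcrc2 placed lean pool 3 lowest.

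The other subunits of complex III lay nearer 0. Uqcrfs1, the Rieske iron-sulfur protein, differed by -0.016 (SE 0.10), and Uqcrh, the hinge protein between cytochromes c1 and c, by 0.018 (SE 0.10). Uqcrfs1 was highest in lean pool 2 (0.15) and lowest in overfed pool 1 (-0.14). Uqcrh was highest in overfed pool 1 (0.18) and lowest in overfed pool 3 (-0.15). Without overfed pool 1 both differences changed sign, to 0.048 and -0.065, and without lean pool 2 that of Uqcrfs1 was 0.059. Uqcr10, Uqcr11 and Uqcrq, small subunits, differed by 0.017, -0.00005 and -0.011.

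Complex IV, cytochrome c oxidase, reduces oxygen to water, and several of its nuclear subunits exist as a common form and a form of muscle, lung or testis. Its 16 subunits had a median difference of -0.012, with 6 above 0 and 10 below. The 2 largest differences of the structural subunits of all complexes were those of Cox6a2 and Cox5a. Cox6a2, the heart and muscle form of subunit 6a, was at 0.21, -0.23 and 0.45 in the lean pools and at -0.21, 0.21 and -0.25 in the overfed pools. Each diet held values on both sides of 0, so the difference of -0.23 (SE 0.20, limma adjusted p 0.874) lay within the spread. Without lean pool 2, its low lean pool, it was -0.41 (limma adjusted p 0.652).

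Cox5a, a subunit on the matrix side, was at -0.22, 0.014 and 0.60 in the lean pools and at -0.014, -0.25 and 0.064 in the overfed pools. Lean pool 3 alone was far above the others. The difference was -0.20 (SE 0.21), and 0.035 without lean pool 3. Cox5b, its neighbour in name, varied by only 0.053 over the 6 pools and differed by -0.0012. Cox7a1, the heart and muscle form of subunit 7a, was at 0.0083, 0.28 and -0.20 in the lean pools and at -0.50, 0.15 and -0.0083 in the overfed pools. Overfed pool 1 was lowest, and without it the difference of -0.15 (SE 0.19) became 0.043.

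At the upper end of complex IV were Cox6c with 0.047 (SE 0.080) and Cox7b2, the testis form of subunit 7b, with 0.042 (SE 0.081). In each, overfed pool 1 was the highest pool, at 0.16 and 0.12, and without it the differences were -0.0084 and -0.0056. Probe sets of Cox6c can share sequence with the pseudogene Cox6c-ps1, which differed by -0.081 (SE 0.088), so the division of signal between them is uncertain.

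The common and tissue forms could be set side by side for several subunits. For subunit 4, Cox4i1, the common form, differed by -0.054 (SE 0.080) and Cox4i2, the form known from lung, by -0.053 (SE 0.10). For subunit 6a, common Cox6a1 differed by -0.0004 (SE 0.083) beside the value of Cox6a2 above. For subunit 6b, common Cox6b1 differed by -0.091 (SE 0.095) and testis Cox6b2 by 0.036 (SE 0.12). For subunit 7b, common Cox7b differed by 0.029 (SE 0.083) beside Cox7b2. For subunit 8, common Cox8a differed by -0.023 (SE 0.076) and muscle Cox8b by 0.0066 (SE 0.16).

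The median range over the 6 pools was 0.53 for the 6 tissue forms and 0.21 for all 16 subunits of the complex. Cox8b ran from -0.26 in overfed pool 1 to 0.37 in overfed pool 2, while its lean pools lay between -0.0044 and 0.032. Cox6b2 was highest in overfed pool 1 (0.30) and lowest in overfed pool 3 (-0.12). Because values are centred, a probe set with little signal above background cannot be told apart from an expressed gene here. Of 8 skeletal and heart muscle markers, 4 had differences above 0 and 4 below, with a median of 0.0040.

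**Figure D3:**
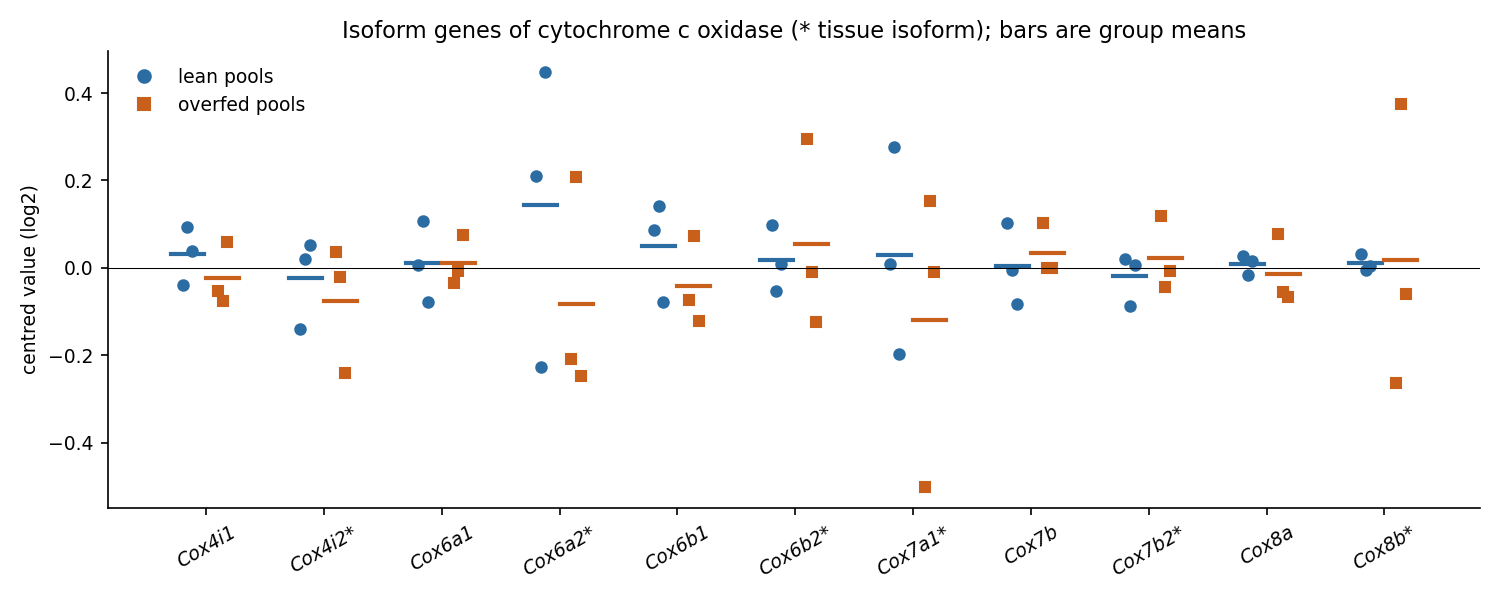
Centred values (log2) of the common and tissue forms (starred) of cytochrome c oxidase subunits, with a circle per lean pool, a square per overfed pool and a bar at each group's mean. In each of the 11 genes the lean and overfed pools overlap, and Cox6a2, Cox7a1 and Cox8b spread the most.

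Complex V, the ATP synthase, was represented by 15 subunits with a median difference of -0.0021, 6 above 0 and 9 below. All 15 intervals lay inside 1.25-fold. The head and central stalk had 4 of 5 subunits below 0. Atp5f1a and Atp5f1b, the alpha subunit and the catalytic beta subunit of the head, differed by -0.00087 (SE 0.090) and -0.019 (SE 0.090). Atp5f1b was at 0.025, 0.069 and -0.12 in the lean pools and at -0.12, 0.067 and -0.025 in the overfed pools. Lean pool 3 and overfed pool 1 were the low pools for both genes.

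The largest differences of complex V below 0 were those of Atp5f1d, the delta subunit of the central stalk (-0.060, SE 0.080), and Atp5pb, subunit b of the peripheral stalk (-0.040, SE 0.099). Atp5f1d was at -0.032, 0.14 and 0.018 in the lean pools and at 0.028, -0.018 and -0.061 in the overfed pools. The difference of Atp5pb changed sign without lean pool 2 (0.024) and without overfed pool 1 (0.0034). Atp5mc3, which encodes the c subunit of the rotor ring, differed by 0.040 (SE 0.070).

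Atp5me, subunit e of the membrane part, had the largest difference of complex V above 0 (0.091, SE 0.083). Its 2 probe sets went opposite ways, with differences of 0.25 and -0.070, so the mean stands for neither. With the representative probe set alone the difference of Atp5me was -0.070. Atp5po, the subunit that joins the peripheral stalk to the head, was at 0.049, -0.012 and -0.16 in the lean pools and at -0.11, 0.12 and 0.038 in the overfed pools. The difference of Atp5po was 0.058 (SE 0.096), and it was -0.0011 without lean pool 3 and -0.0035 with the representative probe set. The probe sets of Atp5po had opposite signs (-0.0035 and 0.12). Ndufv3 and Ndufa7 of complex I also had probe sets of opposite sign, -0.14 and 0.051 for Ndufv3 and -0.085 and 0.042 for Ndufa7. So did Sdhd of complex II (0.042 and -0.012) and the assembly factor Ndufaf7 (-0.026 and 0.0085).

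Of the members that are no structural subunit, Ndufaf5 was the single member whose overfed pools all lay above the lean ones. It modifies the core subunit Ndufs7 during the assembly of complex I. Its lean values were -0.0034, -0.13 and -0.0052 and its overfed values 0.15, 0.0034 and 0.0078. Overfed pools 2 and 3 lay close above lean pools 1 and 3, and the difference was 0.10 (SE 0.083, limma adjusted p 0.866). Ndufaf4 was at -0.071, 0.022 and -0.15 in the lean pools and at 0.19, -0.022 and 0.23 in the overfed pools. Overfed pool 2 lay among the lean pools, and the difference was 0.20 (SE 0.097, limma adjusted p 0.769).

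Sdhaf2, which helps to attach the flavin to Sdha, had the largest difference of all members. It was at 0.16, 0.015 and 0.23 in the lean pools and at -0.28, 0.11 and -0.20 in the overfed pools, and overfed pool 2 lay within the lean range. The difference was -0.26 (SE 0.12, limma adjusted p 0.758). Its 2 probe sets gave -0.26 and -0.25 but did not agree by pool. They read -0.024 and 0.25 in overfed pool 2, and 0.33 and -0.0062 in lean pool 1. The groups did not overlap in the first, the representative probe set, and overlapped in the other. Without overfed pool 2 Sdhaf2 differed by -0.38 and Ndufaf4 by 0.27, at unadjusted p of 0.012 and 0.029 and adjusted p of 0.579 and 0.731 in limma. With its representative probe set, Sdhaf2 reached an unadjusted p of 0.034 (limma adjusted p 0.666). Over the 10 assembly factors among the members the median difference was -0.0089, with 4 above 0.

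Atp5if1, the inhibitor of the ATP synthase, was at -0.0010, 0.15 and 0.096 in the lean pools and at 0.042, -0.046 and -0.20 in the overfed pools. Its difference was -0.15 (SE 0.093, limma adjusted p 0.814), over 3 probe sets with differences of -0.033, -0.24 and -0.18. In lean pool 3 these probe sets read -0.25, 0.35 and 0.18, so the mean there joins opposite values. Cox7a2l, which helps to join complexes III and IV, differed by 0.027 (SE 0.085), and Ndufa4l2, a relative of Ndufa4 known to be induced by low oxygen, by -0.075 (SE 0.083).

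Many members were high or low in the same pools. Lean pool 2 was above 0 in 72 of the 90 genes (80%, against 52.8% of all rows) and lean pool 1 in 56 (62.2% against 44.5%). Lean pool 3 was above 0 in 27 (30% against 47.1%) and overfed pool 1 in 29 (32.2% against 48.1%). Overfed pools 2 and 3 were above 0 in 49 and 43 members (54.4% and 47.8%, against 52.6% and 53.9% of all rows). Lean pool 2 was the highest pool in 40 members (44.4%, against 15.7% of all rows). Lean pool 3 was the lowest in 34 (37.8% against 22.5%) and overfed pool 1 in 25 (27.8% against 20.1%). Over the members, the pool most often highest and the pool most often lowest were thus both lean. Within complex I, overfed pool 1 was the lowest pool in 14 of 34 genes and lean pool 3 in 11.

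**Figure D4:**
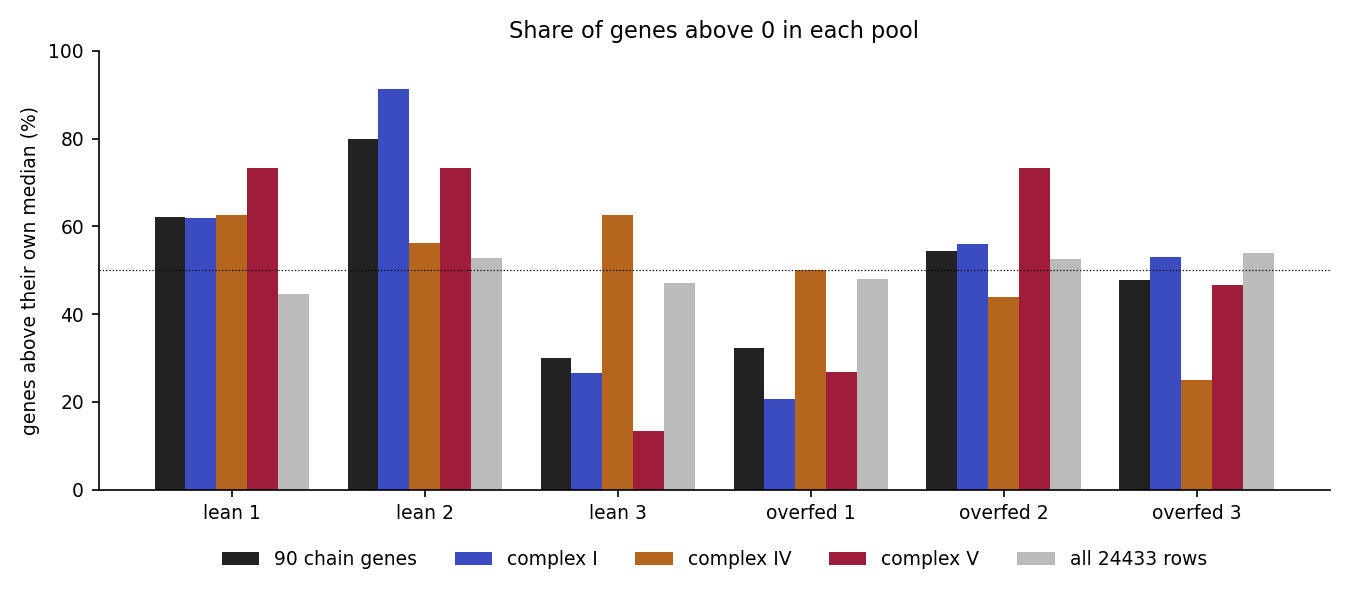
Share of genes above 0, their own median over the 6 arrays, in each pool (percent), for all 90 members, the subunits of complexes I, IV and V, and all rows. The members stand at 80% in lean pool 2 and at 30% and 32.2% in lean pool 3 and overfed pool 1, while complex IV stays at 62.5% in lean pool 3.

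The subunits of the complexes shared this course to different degrees. In lean pool 3, 9 of 34 complex I genes, 0 of 4 complex II genes, 2 of 7 complex III genes and 2 of 15 complex V genes were above 0, against 10 of 16 complex IV genes. In overfed pool 1 the counts were 7 of 34, 1 of 4, 3 of 7 and 4 of 15, against 8 of 16 in complex IV.

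Some cell type markers and array measures differed between the same pools. The corpus luteum markers (7 of 8 listed genes measured, Star, Lhcgr and Prlr among them) had medians of 0.023, 0.070 and -0.19 for lean pools 1 to 3, beside -0.45, 0.014 and -0.012 for overfed pools 1 to 3. The members' medians were 0.0084, 0.056 and -0.052 for the lean pools, beside -0.041, 0.011 and -0.0017 for the overfed pools. Both were thus lowest in lean pool 3 and overfed pool 1 and highest in lean pool 2. The 7 smooth muscle markers ran the other way in part, with medians of 0.28, -0.90 and 0.53 for the lean pools, beside 0.66, -0.32 and -0.51 for the overfed pools. Lean pool 3 also had the highest hybridization controls (mean 0.53, against -0.23 to 0.035 in the others) and the highest actin 3' minus 5' value (0.36, against -0.062 to 0.061). Overfed pool 1 had the widest spread of values over all probe sets (SD 0.29, against 0.14 to 0.24). The part of luteal tissue, muscle or array quality in the members' course was not tested. With lean pool 3 and overfed pool 1 both left out, 24 of the 90 genes were above 0 and the median difference was -0.035.

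**Figure D5:**
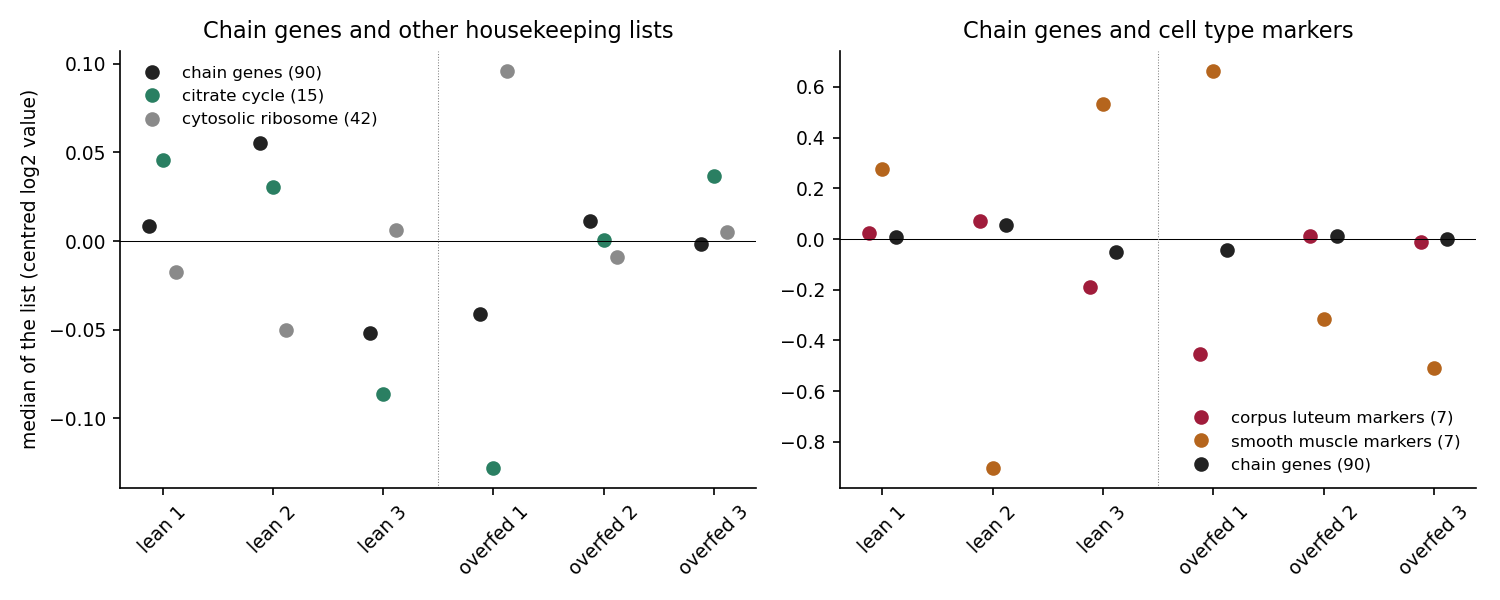
Median centred value (log2) of the 90 chain genes in each pool, beside citrate cycle and cytosolic ribosomal protein genes at the left and beside corpus luteum and smooth muscle markers at the right, with the number of genes in brackets. The luteal markers and the chain genes are lowest in lean pool 3 and overfed pool 1, on scales that differ between the panels.

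Between the diets, the luteal markers had 6 of 7 differences below 0 with a median of -0.093. Without overfed pool 1, 5 of the 7 were above 0 (median 0.049), and without each of the other pools 0 to 3 were. The oviduct and ciliated cell markers differed more: 7 of 7 of the measured genes were below 0, with a median of -0.73, and 3 of the 7 did not overlap (5.61% of all rows were lower without overlap). The 5 macrophage markers were all above 0 with a median of 0.24. Granulosa markers were above 0 in 5 of 7 with a median of 0.32, and both theca markers were above 0 (median 0.40). Markers of brown and white fat were below 0 in 6 of 7 with a median of -0.26, and smooth muscle in 6 of 7 with -0.039. The smooth muscle direction turned with the pool left out. Without lean pool 1, lean pool 3, overfed pool 2 or overfed pool 3, 6 or 7 of the 7 were above 0. Without lean pool 2 or overfed pool 1, 0 of the 7 were. Oocyte (5 genes), endothelium (3) and red blood cell (2) markers had medians of -0.078, -0.064 and -0.18. Their part in the differences of the members was not tested.

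Other genes of the same pathway were read from lists. Of 48 listed assembly factors of the 5 complexes, which include the 10 members, 43 were measured, with 22 above 0 and a median of 0.0097. Bcs1l, which inserts the Rieske protein into complex III, was at -0.18, -0.16 and -0.036 in the lean pools and at 0.41, 0.12 and 0.036 in the overfed pools. Ttc19, which clears fragments of the Rieske protein, was at -0.059, -0.13 and -0.037 in the lean pools and at 0.18, 0.037 and 0.13 in the overfed pools. In both the overfed pools lay above all lean pools, while Uqcrfs1, the Rieske protein itself, overlapped. The differences were 0.31 (SE 0.12) for Bcs1l and 0.19 (SE 0.077) for Ttc19, at unadjusted p of 0.030 and 0.042 in limma and adjusted p of 0.649 and 0.690. These were the 2 of 43 assembly factors at an unadjusted p under 0.05 in limma, both higher (background 3.39% of rows). The overfed pools lay above all lean pools in 7 of the 43 (16.3%, against 7.46% of rows) and below them in 0 (5.61% of rows).

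Ubiquinone enzymes and other electron carriers (16 of 23 listed genes) had a median difference of 0.011, with 9 above 0. Coq2, an enzyme of ubiquinone synthesis, differed by -0.11 (SE 0.077) and Higd1a, a small protein that associates with the chain, by 0.13 (SE 0.11). Of the subunits encoded by mitochondrial DNA, only those listed as COX1 and COX2 were measured here, and they were taken as mitochondrial by the platform's identifiers, which the RefSeq gene table used here does not hold. COX1 differed by -0.044 (SE 0.069) and COX2 by 0.0049 (SE 0.069), where the nuclear subunits of complex IV had a median of -0.012. The 15 citrate cycle genes had 12 differences below 0 and a median of -0.036. Without overfed pool 1, 7 of the 15 were below 0. Ogdh and Idh3a had the lowest p of this list, with differences of -0.23 (SE 0.12) and -0.17 (SE 0.091), and their groups did not overlap. These were the 2 of 15 genes lower without overlap (13.3%, against 5.61% of rows), and 0 were higher (7.46% of rows).

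Among regulators of mitochondrial biogenesis (22 of 23 listed genes), 13 were above 0 and the median was 0.058. Esrrg, an estrogen-related receptor that acts on genes of the respiratory chain, was at 0.65, 0.15 and 0.71 in the lean pools and at -0.75, -0.15 and -0.53 in the overfed pools. The groups did not overlap. Of the 22 regulators, 2 were lower without overlap (9.09%, against 5.61% of rows) and 3 higher (13.6% against 7.46%). The difference of Esrrg was -0.98 (SE 0.20, unadjusted p 0.0019 and adjusted p 0.561 in limma), more than 3 times the largest difference of a member. Foxj1, a ciliated cell marker singled out after its values were seen, had the same order of pools (0.58, 0.21 and 0.95 lean, -0.72, -0.21 and -0.50 overfed). The 7 oviduct and ciliated cell markers together had another order, with medians of 0.47, -0.053 and 0.68 for the lean pools, beside 0.0099, -0.21 and -0.79 for the overfed pools. In overfed pool 1, 4 of the 7 were above 0. The part of ciliated cells in the Esrrg value was not tested. Esrrb, a relative, differed by -0.40 (SE 0.14, limma adjusted p 0.638) and Esrra by -0.027 (SE 0.13). Pprc1, a coactivator of the same programme, differed by 0.44 (SE 0.17, limma adjusted p 0.663), and Nrf1, the factor of the sites shown above, by 0.069 (SE 0.073).

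The mitochondrial ribosome (70 of 79 listed genes) had 33 differences above 0 and a median of -0.0046. Its lowest p values belonged to Mrpl38 (-0.17, SE 0.079) and Mrpl36 (-0.15, SE 0.071), whose groups did not overlap. Of the 70 genes, 3 were higher and 3 lower without overlap (4.29% each, against 7.46% and 5.61% of rows). Of 12 carriers and uncoupling proteins 6 were above 0, and Slc25a27 (0.24, SE 0.11) and Ucp3 (-0.21, SE 0.10) had the lowest p. The cytosolic ribosomal proteins, other abundant housekeeping messages, had 38 of 42 differences above 0 and a median of 0.049, led by Rps13 (0.31, SE 0.098) and Rpl30 (0.15, SE 0.096). In overfed pool 1, 42 of these 42 genes were above 0, where 29 of the 90 chain genes were. None of the genes of these lists reached an adjusted p under 0.05 in limma.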

How the data were processed

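Per the labels' protocols, ovary RNA was extracted with TRI reagent and RNeasy columns with DNase digestion, and labelled with a GeneChip IVT kit. GCOS, software of the array's maker, stands in the submitters' processing notes without a version. Of summary method, normalization and log base, none is given in the sources used here. The authors deposited log values, taken here as log2, with each probe set's median over the 6 arrays at 0 (within 5e-07). Signal over background is therefore unknown, and the number of arrays limits the precision.

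Of 31042 probe sets without the 57 array controls, 20826 had 1 gene, 436 several and 9780 none. Probe sets of a gene were averaged, giving 24433 rows. Overfed minus lean was fitted in limma 3.58.1 (R 4.3.3; lmFit, eBayes, no covariate, two-sided) with Benjamini-Hochberg adjustment over all rows and a threshold of 0.05. The script was tested on simulated data. Members, lists and naming rule were all chosen with earlier results of these data known. The rule named members whose groups did not overlap, the 2 largest differences in each direction per complex, isoforms, complex II and the 2 lowest p per list, and other members were named after their values were seen. Alternatives were quantile normalization, array median centring, a robust prior, array weights, a representative probe set, no shared probe sets, a filter on SD, other member rules, a pool block and left-out pools. Figures used matplotlib 3.10.9 (Python 3.11.15). Promoters are RefSeq's (GRCr8).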

Additional observations from a re-analysis of the deposited data

How the results depend on the processing

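The count of 0 members at an adjusted p under 0.05 held under all 17 alternatives. Those with the structural subunits alone and with current symbols, which gave the same 90 members, reused the main fit. Their count of 0 was thus fixed in advance, and leaving out pools left fewer pools for the test. The lowest adjusted p in limma was 0.638 over the 33 members named by the rule, and 0.579 for Sdhaf2 without overfed pool 2. The filter that left out the rows with the smaller SD kept 12217 rows and 17 members, of which 6 were above 0. It gave 0 non-overlapping members in either direction, where 7.13% of the kept rows were higher and 7.25% lower. Over all rows this filter gave 4 adjusted calls, 0 of them members.

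At an unadjusted p under 0.05 in limma the count of lower members was 1 with array weights and 1 with representative probe sets. Over all 24433 rows, 857 and 896 were then lower. Leaving out 1 pool gave 0 to 1 members in each direction, where 622 to 894 of all rows were higher and 612 to 1059 lower. Quantile normalization and median centring each gave 0 non-overlapping members higher (6.75% and 6.74% of rows) and 4 lower (6.21% and 6.25%). The structural subunits alone gave 0 higher (7.46% of rows). Leaving out 1 pool gave 2 to 5 higher (12% to 14.6% of rows) and 4 to 16 lower (9.31% to 10.6%). Leaving out lean pool 3 and overfed pool 1 together, with 2 pools against 2, gave 5 higher and 24 lower. These were 5.56% and 26.7%, where 20.8% and 14.2% of all rows did not overlap. Representative probe sets and leaving out shared probe sets each gave 3 lower (3.33%, against 5.61% and 5.62% of rows). The count above 0 ran from 20 to 55 with 1 pool left out.

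Quantile normalization moved the median over members to -0.033, complex I to -0.043, complex III to -0.016 and complex V to -0.020, and that over all rows from 0.013 to 0.0067. Median centring gave -0.023 over members, -0.034 for complex I, -0.0081 for complex III and -0.010 for complex V. The complex IV median was -0.030 after quantile normalization, -0.020 after median centring, -0.023 with array weights, -0.15 under the SD filter, -0.029 without both pools, and -0.024 to 0.014 with 1 pool left out. The complex III median was 0.10 under the SD filter, which kept Uqcrc2 alone, and complex V then had no gene and no value.

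Of 462 values of 33 named members under these alternatives, 43 changed sign, in 22 genes, all with differences that the test did not call. They were -0.070 for Atp5me and -0.0035 for Atp5po with representative probe sets, -0.0014 for Cox8b with median centring and -0.0065 for Sdhd after quantile normalization. With array weights they were -0.016 for Cox6b2, -0.010 for Cox7b, -0.014 for Sdhd and 0.0048 for Uqcrfs1. Without both pools they were 0.0084 for Cox5a, -0.089 for Cox6b2, -0.016 for Cox6c, -0.049 for Cox7b, -0.044 for Sdhd and -0.051 for Uqcrh. With 1 pool left out the values ran from -0.0089 to 0.16 for Ndufa9, -0.17 to 0.052 for Sdha, -0.19 to 0.088 for Sdhb, -0.10 to 0.020 for Sdhc, -0.023 to 0.044 for Sdhd, -0.073 to 0.059 for Uqcrfs1, -0.029 to 0.21 for Uqcrc2 and -0.065 to 0.10 for Uqcrh. They ran from -0.37 to 0.035 for Cox5a, -0.0084 to 0.085 for Cox6c, -0.0056 to 0.076 for Cox7b2, -0.11 to 0.030 for Cox4i2, -0.046 to 0.048 for Cox6a1, -0.085 to 0.12 for Cox6b2, -0.28 to 0.043 for Cox7a1, -0.010 to 0.091 for Cox7a2l, -0.015 to 0.078 for Cox7b, -0.070 to 0.0025 for Cox8a and -0.17 to 0.15 for Cox8b, and from -0.12 to 0.024 for Atp5pb and -0.0011 to 0.12 for Atp5po. Apart from the smaller number of pools or genes, the cause of these changes was not tested.

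Same-numbered pools correlated at 0.102, 0.157 and -0.311 in their deviations from the group means, and 2 of 6 pools correlated best with their own number, so the numbers were not taken as pairs. With the pool number as a replicate block 0 members were called, 33 were above 0 and the median difference was -0.015.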
